A study of Mus musculus with 4 samples.

Results

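The genes described here carry the symbols of proteins of the cytosolic ribosome. They were chosen by symbol, as the Rpl and Rps genes together with Rpsa and the acidic stalk genes Rplp0 to Rplp2, without the Rps6k kinases, and each was represented by its brightest probe set among those annotated to 1 gene symbol. The rule found 49 genes of 18194 on the array. By the prefix of the symbol, Rpl or Rps, 26 were counted with the large subunit and 23 with the small subunit. RefSeq lists 48 of them as protein-coding genes, and Rps4l as a transcribed pseudogene. They lie on 17 chromosomes.

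Gene expression was measured on 4 Affymetrix mouse genome arrays of myeloid-derived suppressor cells (MDSCs), immature myeloid cells that restrain T cell responses. C57BL/6 bone marrow cells received a lentivirus and were grown for 4 days with GM-CSF and IL-6, which turn them into MDSCs. The groups were kdLNC, with an shRNA against the RNA called lncMDSC in the labels and taken here as the study's lnc-C/EBPβ, kdNC, with a control shRNA (against luciferase per the methods), oeLNC, with a lentivirus that carries lncMDSC, and oeNC, with the control lentivirus for overexpression. Each group was 1 culture of mixed cells on 1 array, so no p-value and no replicate error can be attached to a difference, and a difference between 2 arrays holds culture, vector and array together. Values are log2 of the deposited probe set intensity. Genes were counted as above the filter when either array of a pair read them above its 50th percentile of probe sets, and as different from 1.5-fold.

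Ribosomal proteins are made in near-equal amounts and assembled with ribosomal RNA in the nucleolus, and their mRNAs are among the most abundant of any growing cell. Most of these mRNAs begin with a tract of pyrimidines (the terminal oligopyrimidine, or TOP, motif), through which mTORC1 and its target LARP1 set their translation and stability, and MYC raises their transcription. Ribosomal proteins that are not built into ribosomes can bind MDM2 and so stabilise p53. Loss of a single copy of several of these genes causes Diamond-Blackfan anaemia, in which red cell precursors fail, so the family has long been studied in bone marrow.

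The ribosomal protein genes were among the brightest on every array. The mean level of 35 of the 49 lay above the 98th percentile of all genes, 6 lay between the 70th and the 98th percentile, and 8 lay below the 70th. The median of the 49 levels was 11.76 on the kdNC array and 11.88 on the kdLNC array, 11.95 with oeNC and 11.80 with oeLNC, where the median of all probe sets was 4.17 to 4.24. Brightness differs between probe sets for reasons of probe sequence, so the order of the genes is one of probe sets and not of RNA amounts.

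The brightest of them was Rps29, a small protein of the 40S head, with levels of 12.82 (kdNC) and 12.74 (kdLNC), 12.76 (oeNC) and 12.69 (oeLNC). It was followed by Rps14, Rpl7a, Rpl13a and Rplp2, with mean levels of 12.72, 12.72, 12.71 and 12.61. Neighbours in this order lay closer to each other than the spread of either over the 4 arrays. Among the bright genes the arrays lay close together, with a median range over the 4 arrays of 0.16, against 0.65 among the 14 others.

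At the other end were Rps16, Rpl3l, Rpl39l, Rpl14 and Rpl39. Rpl3l is the muscle paralogue of Rpl3 and Rpl39l the germ cell paralogue of Rpl39, and neither exceeded the filter on any array, with levels of 3.11 to 3.68 and of 3.30 to 3.73. The same held for Rps16, whose probe set had levels of 1.84 (kdNC) and 2.42 (kdLNC), 1.64 (oeNC) and 2.39 (oeLNC). Rps16 encodes a core protein of the small subunit, so a level at the floor of the array describes this probe set. With Rps16, Rpl3l and Rpl39l left out, 46 of the 49 genes were above the filter in each comparison. Of these, Rpl12, Rpl14, Rpl39, Rps27 and Rps4l were each read by 1 dim probe set, below the 70th percentile of genes. Their values too describe these probe sets.

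**Figure D1:**
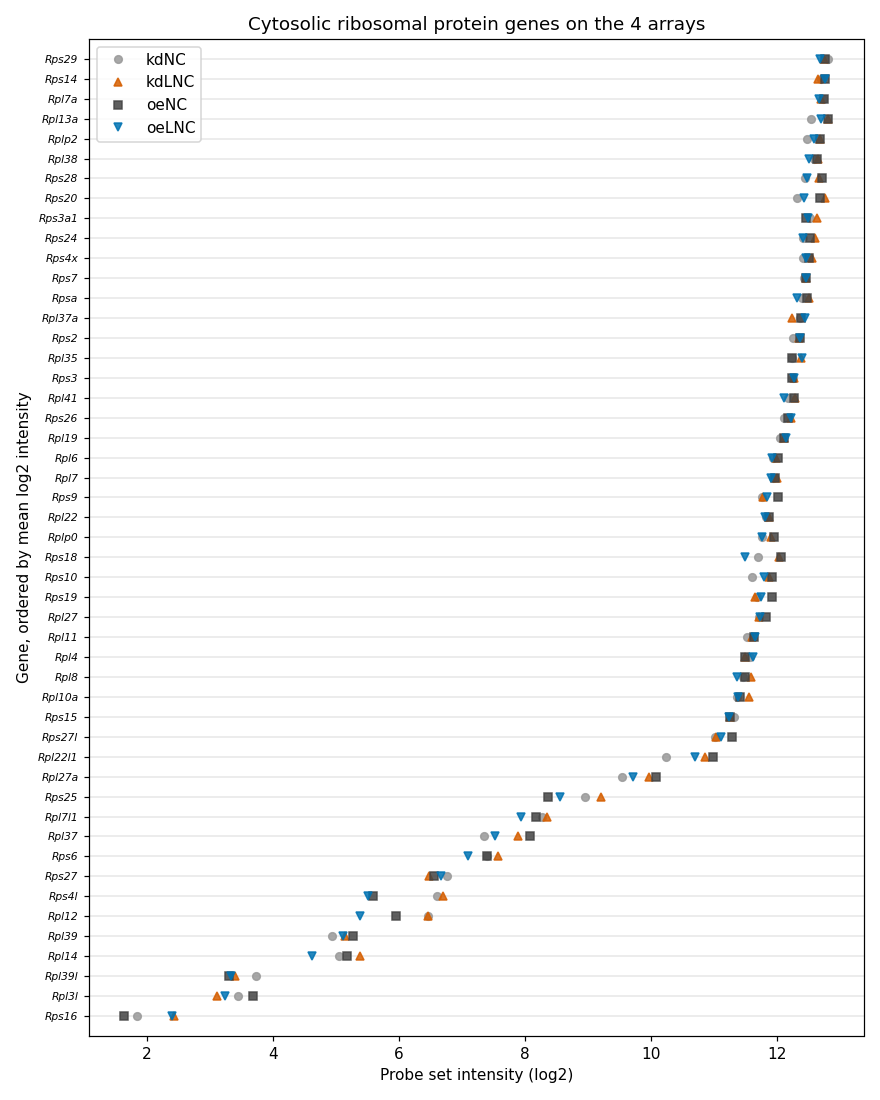
Log2 probe set intensity (horizontal axis) of the 49 ribosomal protein genes (vertical axis, ordered by mean level) on the 4 arrays, 1 symbol per array and no error bars because each group is 1 array. The 35 genes above the 98th percentile of genes sit between about 11 and 13 with the arrays close together, and the arrays spread apart among the 14 genes below.

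Knockdown of the lncRNA was compared first, to see whether the ribosomal protein genes differed between kdLNC and kdNC. In kdLNC 38 of the 49 genes were higher and 11 lower, with a median log2 difference of 0.10, where 40.6% of all genes above the filter were higher and their median was -0.05. After a further quantile normalization the split was 31 to 18. The differences were small. Only Rpl22l1 of the 46 genes above the filter was at least 1.5-fold different, beside 4.33% of all genes (498 of 11505).

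Rpl22l1 encodes a paralogue of Rpl22 that can take its place in the ribosome and regulates splicing. Its level was 10.24 (kdNC) and 10.86 (kdLNC), 10.99 (oeNC) and 10.70 (oeLNC), so that kdNC was lowest and the other arrays lay within 0.29 of each other. The log2 difference was 0.62 in the knockdown pair and -0.29 in the overexpression pair, but it was 0.75 between the control arrays. Against the mean of both control arrays it was 0.24 for kdLNC and 0.09 for oeLNC. Rpl22, by contrast, had levels of 11.81 to 11.87 and differences of 0.05 and -0.06.

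Next in the knockdown pair came Rps16 (0.58, below the filter), Rpl37, Rps20 and Rpl27a. Rpl37, a zinc-binding protein of the large subunit, had levels of 7.35 (kdNC) and 7.90 (kdLNC), 8.07 (oeNC) and 7.53 (oeLNC). Its difference was 0.54 in the knockdown pair and -0.55 in the overexpression pair. Rps20, a protein of the 40S head, had levels of 12.32, 12.76, 12.69 and 12.43 in the same order of arrays, and Rpl27a, a large subunit protein, had 9.54, 9.97, 10.09 and 9.71. In Rpl37, Rps20 and Rpl27a kdLNC and oeNC were the high arrays and kdNC and oeLNC the low ones. The second probe set of Rpl27a was dim (3.75 to 4.68) and ran the other way, with a difference of -0.87 in the knockdown pair.

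The genes that were lower in kdLNC differed less. Rpl3l and Rpl39l differed by -0.34 and -0.33, both below the filter, and Rps27, mutated in some patients with Diamond-Blackfan anaemia, by -0.29 from 6.76 in kdNC to 6.47 in kdLNC. Of the bright genes the lowest difference was -0.12, for Rpl37a, whose other bright probe set differed by 0.12.

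Overexpression was compared in the same way. Of the 49 genes 35 were lower in oeLNC than in oeNC and 14 higher, with a median of -0.10, where 47.8% of all genes above the filter were higher and their median was -0.01. None of the 46 genes above the filter reached 1.5-fold, beside 9.32% of all genes (1106 of 11869), and with no replicates no test was run. Centring each array on its median shifts every gene of a pair by the same amount, and then 44 genes were lower and 5 higher. Rps18, Rpl12, Rpl14 and Rpl37, 4 genes in all, then passed 1.5-fold, beside 1191 of 11869 genes, and the median of the family lay 0.09 below that of all genes with or without centring. After a further quantile normalization 34 genes were lower and 14 higher, with a median of -0.03. The dim Rps16 differed by 0.75.

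The lowest difference was that of Rps18, a protein at the bridge between the subunits. Its level was 11.69 (kdNC) and 12.04 (kdLNC), 12.06 (oeNC) and 11.49 (oeLNC), and the difference was -0.58, just short of 1.5-fold. The other bright probe sets of Rps18 differed by -0.01 and -0.07. Rpl12, of the base of the P stalk, had levels of 6.46, 6.46, 5.96 and 5.38 in the same order. Its difference was -0.58 in the overexpression pair and 0.01 in the knockdown pair. Rpl14, a large subunit protein, had levels of 5.05, 5.39, 5.18 and 4.63 and a difference of -0.55. Rpl12 and Rpl14 were each read by 1 probe set that was far dimmer than most of the family. Their differences, with and without centring, therefore describe these probe sets. Rpl35 and Rpl4, both of the large subunit, and Rps25, which helps viral internal ribosome entry, were higher in oeLNC by 0.16, 0.13 and 0.19. The other bright probe sets of Rpl35 differed by -0.29, -0.13, -0.26 and 0.03 in that pair.

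The pairs share no array and had opposite signs in most of the genes. In 29 of 49 genes (59.2%) kdLNC was higher than its control and oeLNC lower than its own, against 23.6% of the 11236 other genes above the filter in both pairs. In 5 genes the signs were the reverse, 9 genes were higher in both pairs and 6 lower in both. Over the 46 genes above the filter the differences of the pairs correlated with r = -0.54 (Spearman's rho = -0.46), as a description across genes that were read on the same arrays. The correlation over the other genes was not computed, so this value cannot be called particular to the family.

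The control arrays are the only pair in which the labels name no change of the lncRNA. Between oeNC and kdNC 36 of 49 genes were higher in oeNC and 13 lower, with a median of 0.07, where the median of all genes above the filter was -0.04. After quantile normalization the split was 25 to 23. At least 1.5-fold different were 4 of 46, beside 21.4% of all genes (2510 of 11723). These were Rpl22l1 (0.75) and Rpl37 (0.72), higher in oeNC, and Rps4l and Rps25, lower. Rps4l, read by 1 dim probe set, had levels of 6.60 (kdNC) and 6.70 (kdLNC), 5.58 (oeNC) and 5.51 (oeLNC). Rps25 had 8.96 and 9.21 in the knockdown pair and 8.36 and 8.55 in the overexpression pair. In both genes the knockdown arrays read higher than the overexpression arrays, as in other members such as Rpl12. The share of all genes that do so was not counted. Vector, culture and array cannot be told apart in these differences.

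Counted over arrays, 20 of the 49 genes were lowest in kdNC and 16 in oeLNC, against 6 in kdLNC and 7 in oeNC. The highest array was kdLNC in 20 genes and oeNC in 17, against 4 for kdNC and 8 for oeLNC. Each gene was set against the SD that oeNC minus kdNC had in the 500 other genes nearest to it in level. That SD was 0.28 to 0.63 and is no replicate error. By it, 45 of the 49 genes lay within 1 SD in the knockdown pair and 44 in the overexpression pair, where 93.3% and 85.5% of the other genes above the filter did.

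**Figure D2:**
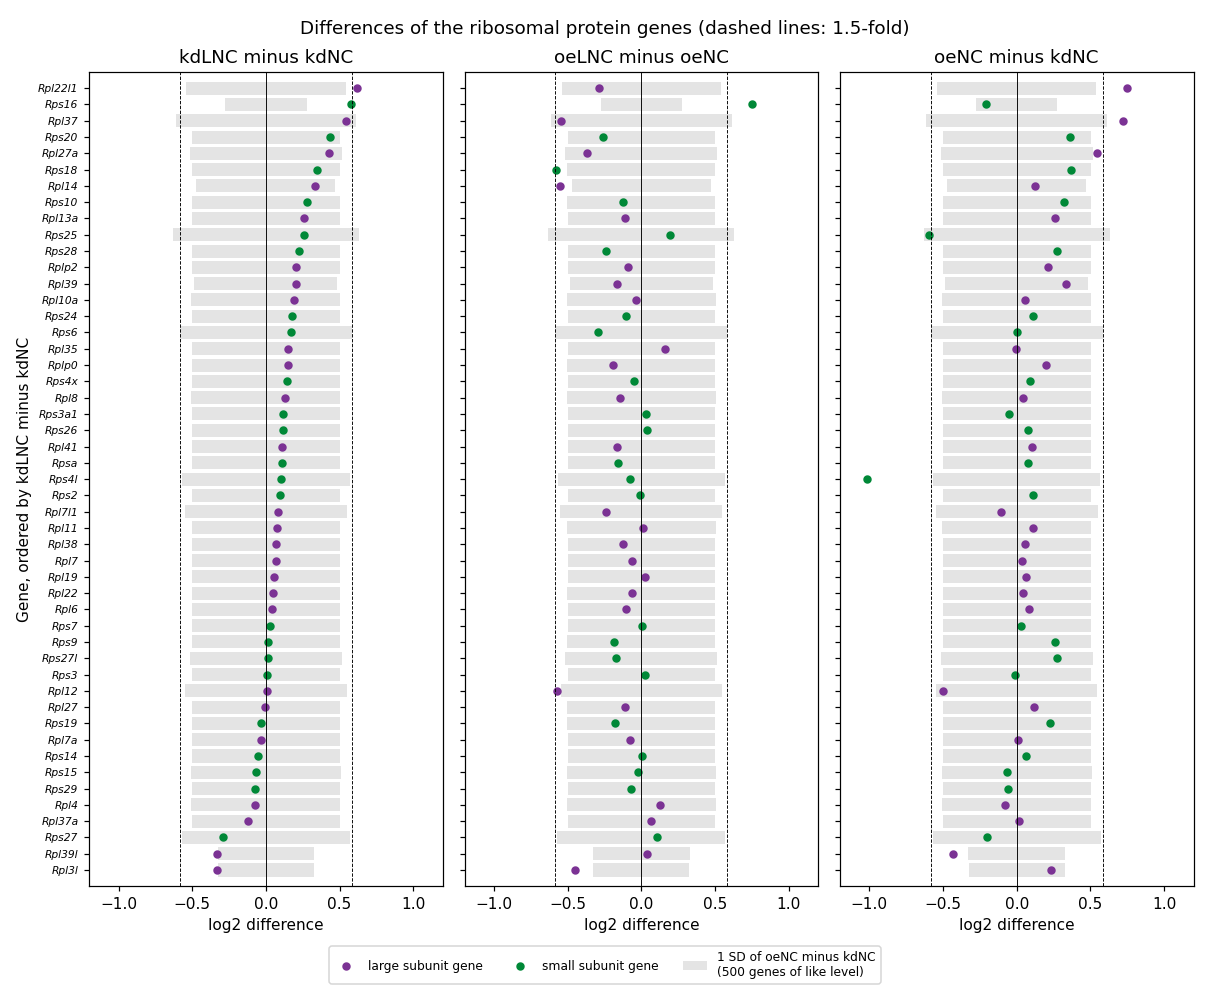
Log2 difference (horizontal axis) of each ribosomal protein gene (vertical axis, ordered by kdLNC minus kdNC) in the pairs (left, middle) and between the control arrays (right). Points are large (purple) and small (green) subunit genes, 1 probe set each, grey bars are 1 SD of oeNC minus kdNC over 500 genes of like level, and dashed lines mark 1.5-fold. Most points sit right of 0 on the left, left of 0 in the middle and right of 0 on the right, and 45 and 44 of 49 lie inside the grey bars in the pairs.

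Both subunits shared the pattern. The median difference of the 26 large subunit genes was 0.08 in the knockdown pair, -0.11 in the overexpression pair and 0.07 between the controls, and that of the 23 small subunit genes was 0.11, -0.07 and 0.07. Higher in kdLNC were 20 large subunit and 18 small subunit genes, and lower in oeLNC were 20 and 15.

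The genes were also set apart by brightness. The 35 genes above the 98th percentile had medians of 0.08 in the knockdown pair, -0.08 in the overexpression pair and 0.08 between the controls, and the 329 other genes above that percentile had -0.01, 0.03 and -0.02. The 6 genes between the 70th and the 98th percentile, Rpl22l1, Rpl27a, Rps25, Rpl7l1, Rpl37 and Rps6, had the wider medians of 0.34, -0.29 and 0.27. All 6 were higher in kdLNC and all but Rps25 were lower in oeLNC. Rps6, the substrate of S6 kinase, had levels of 7.40 (kdNC) and 7.57 (kdLNC), 7.40 (oeNC) and 7.10 (oeLNC).

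Other probe sets of the same genes were then compared with the brightest. In all, 105 probe sets carried 1 fitting symbol, 24 genes had several, and in 19 genes at least 2 of them lay above the 90th percentile of probe sets. Within these 19 genes the probe sets of a gene spanned a median of 0.25 in both pairs, more than the median difference of the family, and they had both signs in 11 genes in the knockdown pair and in 7 in the overexpression pair.

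Rps9, a small subunit protein that guards decoding accuracy, had the widest span. Its representing probe set had levels of 11.76 (kdNC) and 11.78 (kdLNC), 12.02 (oeNC) and 11.84 (oeLNC), a difference of 0.02 in the knockdown pair. The second probe set of Rps9 had 9.98, 11.22, 11.53 and 10.75, a difference of 1.24 in the knockdown pair and 1.55 between the controls. For Rpl27, a large subunit protein, the probe sets differed by 0.00, 0.50 and 0.73 in the knockdown pair, and the last of these had levels of 9.48 (kdNC) and 10.21 (kdLNC), 10.57 (oeNC) and 9.86 (oeLNC). In these probe sets too kdNC was lowest. Rpl13a, which also silences interferon-induced transcripts, had 4 bright probe sets with differences from -0.11 to 0.64, Rpl35 had 5 from 0.15 to 0.60, and the second probe set of Rps20 differed by 0.77.

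Taken as a group, the 35 bright probe sets that did not represent their gene had medians of 0.19 in the knockdown pair, -0.16 in the overexpression pair and 0.23 between the controls, and 23 of the 35 were lowest in kdNC. A further 110 probe sets were annotated to several symbols of which at least 1 fits the rule, and 28 fitting symbols had such probe sets only. These probe sets name no gene, and as a group they had medians of 0.12, -0.09 and 0.08. Ribosomal protein genes have many processed pseudogenes with near-identical sequence, so their values can be shared with such copies, which was not tested. Of the 49 representing probe sets, 33 have a suffix (_x_at, _s_at or _a_at) that marks probes which can match several transcripts. For _a_at these are transcripts of the same gene, so that suffix is no sign of such copies.

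**Figure D3:**
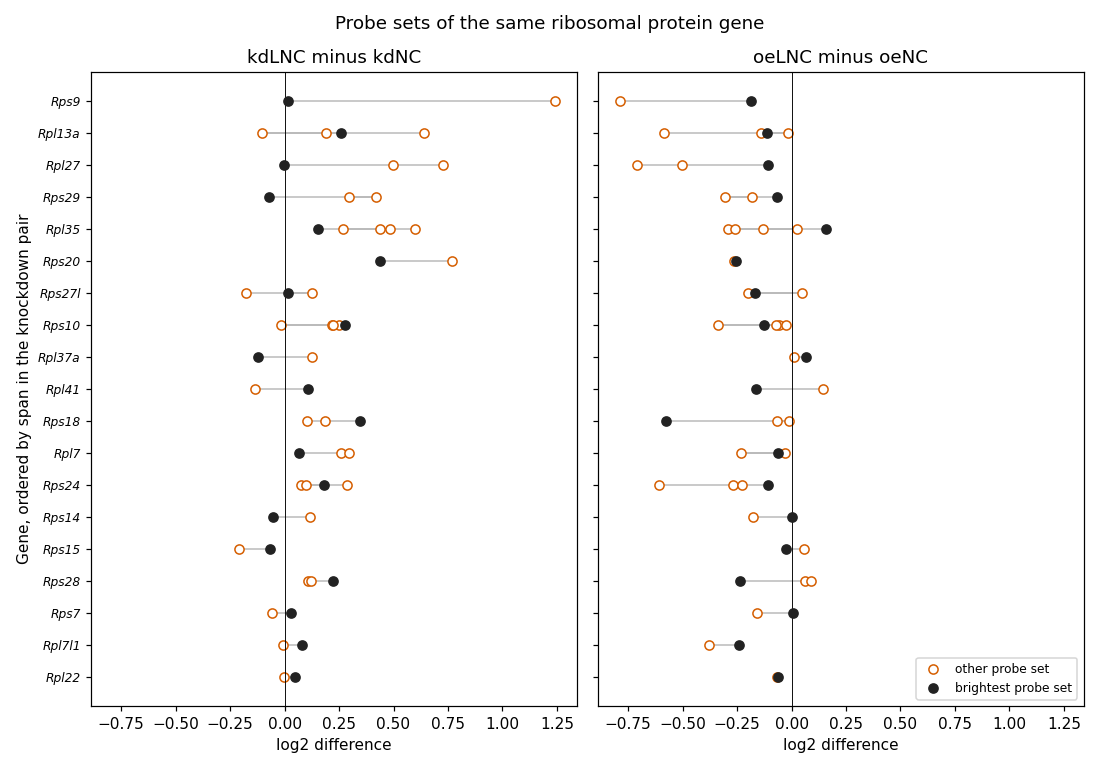
Log2 difference (horizontal axis) of every bright probe set of the 19 ribosomal protein genes that had several above the 90th percentile of probe sets (vertical axis, ordered by span in the knockdown pair). Filled points are the brightest probe set, which represents the gene, open points the others, and grey lines join those of a gene. The span runs from 0.05 for Rpl22 to 1.22 for Rps9 in the knockdown pair.

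Promoters were read from a table of RefSeq promoters (GRCm38.p6), in which 43 of the 49 genes were matched. Rps4l, Rps14, Rps29, Rps20, Rpl8 and Rpl7 were not matched. The motif CCGGAAG, the core bound by ETS factors such as GABPA, was found on either strand between 250 bases before and 50 bases after the start in 21 of 43 genes (48.8%), against 9.93% of 27025 genes in the table. For the pyrimidine tract of TOP mRNAs the sense strand was searched within 20 bases of the start. Only 3 short forms were searched for, so a gene without them can still have a tract. The form CTCTTT was found in 4 of 43 genes (9.30%, against 1.81% of all), the form CTTTCC in 7 (16.3%, against 2.30%) and the form CTTTTC in 3 (6.98%, against 1.68%). These forms can overlap, and at least 1 of them was found in 12 of 43 (27.9%), against 5.24%. AAGATGG, bound by YY1, was found on either strand in 8 of 43 (18.6%), against 7.28%. Annotated starts can lie some bases from the true start, and a match of letters is not a bound site.

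The following windows run 5′ to 3′ on the strand of the gene, from 30 bases before to 20 bases from the annotated start. Capitals mark CCGGAAG on either strand and the 3 searched forms of the pyrimidine tract. Other runs of pyrimidines, such as those of Rpl22l1 and Rps18, were not searched for and stand in lower case. Rpl22l1 (chr3:28805478-28805527, + strand), Rpl37 (chr15:5116583-5116632, + strand), Rpl27a (chr7:109519165-109519214, + strand) and Rps18 (chr17:33955646-33955695, - strand) are shown because their differences were the widest in the knockdown pair among the genes with a promoter and above the 70th percentile. Rps10 (chr17:27635225-27635274, - strand) is shown because its window holds both motifs, and Rpl35 (chr2:39005112-39005161, - strand) because its pyrimidine tracts adjoin.
Rpl22l1: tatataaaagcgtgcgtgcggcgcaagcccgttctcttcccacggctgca
Rpl37: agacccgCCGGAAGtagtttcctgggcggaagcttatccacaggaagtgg
Rpl27a: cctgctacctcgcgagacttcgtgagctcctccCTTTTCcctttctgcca
Rps18: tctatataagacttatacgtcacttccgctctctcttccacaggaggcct
Rps10: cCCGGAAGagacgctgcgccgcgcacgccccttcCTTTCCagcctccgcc
Rpl35: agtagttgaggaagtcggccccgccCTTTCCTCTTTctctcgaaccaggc
Over the whole searched region, from 250 bases before to 50 after the start, CCGGAAG was found on either strand for Rpl37, Rpl27a and Rps18 of the first 4 genes.

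Members with a known role of their own were then followed. Of the P stalk, which recruits elongation factors to the ribosome, Rplp0 had levels of 11.76 (kdNC) and 11.91 (kdLNC), 11.95 (oeNC) and 11.76 (oeLNC), and Rplp2 had 12.48, 12.68, 12.69 and 12.60. Both were higher in kdLNC (0.15 and 0.21) and lower in oeLNC (-0.19 and -0.09). Rpl11, which carries 5S ribosomal RNA and binds MDM2, had levels of 11.53, 11.60, 11.64 and 11.65 and differences of 0.08 and 0.01. Of 18 genes listed for Diamond-Blackfan anaemia 11 were measured, 7 higher and 4 lower in kdLNC, with medians of 0.08 in the knockdown pair and -0.07 in the overexpression pair. Rps19, the gene most often mutated in that disease, had levels of 11.69, 11.66, 11.92 and 11.74. Of 8 listed paralogues 6 were measured, and apart from Rpl22l1 and Rps4l none was 1.5-fold different in any comparison. Rps27l, a paralogue of Rps27 that p53 induces, had levels of 11.01, 11.03, 11.29 and 11.12.

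Other genes of the translation machinery were set beside the family. Of 15 other TOP mRNAs measured none was 1.5-fold different in either pair, beside 4.33% and 9.32% of all genes. Their medians were 0.07 in the knockdown pair, -0.10 in the overexpression pair and 0.06 between the controls, close to those of the ribosomal protein genes. Eef1b2, an elongation factor subunit, differed by 0.33 and -0.50 in the pairs, and Npm1, a nucleolar chaperone, by 0.40 and -0.34. Of 48 ribosome biogenesis factors measured, 34 were higher in kdLNC and 36 were lower in oeLNC (medians 0.09 and -0.15). Past 1.5-fold were 2 and 3 of them, beside the same 4.33% and 9.32% of all genes. Between the controls 41 of the 48 were lower in oeNC, 13 of them by at least 1.5-fold, beside 12.2% of all genes (1429 of 11723), with a median of -0.33, where the ribosomal protein genes had 0.07. The 76 mitochondrial ribosomal protein genes, which serve the separate ribosome of that organelle, had medians of -0.02, -0.10 and -0.22.

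The remaining lists were narrower. The 15 genes of the RNA polymerase I machinery, which transcribes ribosomal RNA, had medians of 0.05, -0.11 and -0.14, with Polr1e at -0.88 in the overexpression pair. The 32 translation initiation factors had -0.01, -0.08 and -0.17, and the 9 ribosome quality control genes, which clear stalled ribosomes, had 0.00, -0.22 and 0.03. Of the 22 mTORC1, MYC and TOP regulators (medians -0.08, -0.07 and 0.13), Myc had levels of 6.54 (kdNC) and 6.49 (kdLNC), 5.47 (oeNC) and 5.98 (oeLNC), and Larp1 had 9.67, 9.64, 8.44 and 8.84. Both lay higher in the knockdown arrays than in the overexpression arrays. Ddit4 (7.87, 7.23, 9.34 and 8.39) and Mxi1 (8.79, 8.29, 10.12 and 9.88) lay lower in the knockdown arrays. Of the 22 regulators 13 were higher in oeNC than in kdNC and 9 lower. The 11 p53 targets had medians of -0.20, -0.17 and 0.27. The ribosomal protein gene Rps27l is 1 of them, and the last 2 medians are its own differences. Zmat3 and Phlda3 were more than 1.5-fold lower in kdLNC (-0.88 and -0.83), 2 of the 10 targets above the filter, beside 1.96% of all genes.

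**Figure D4:**
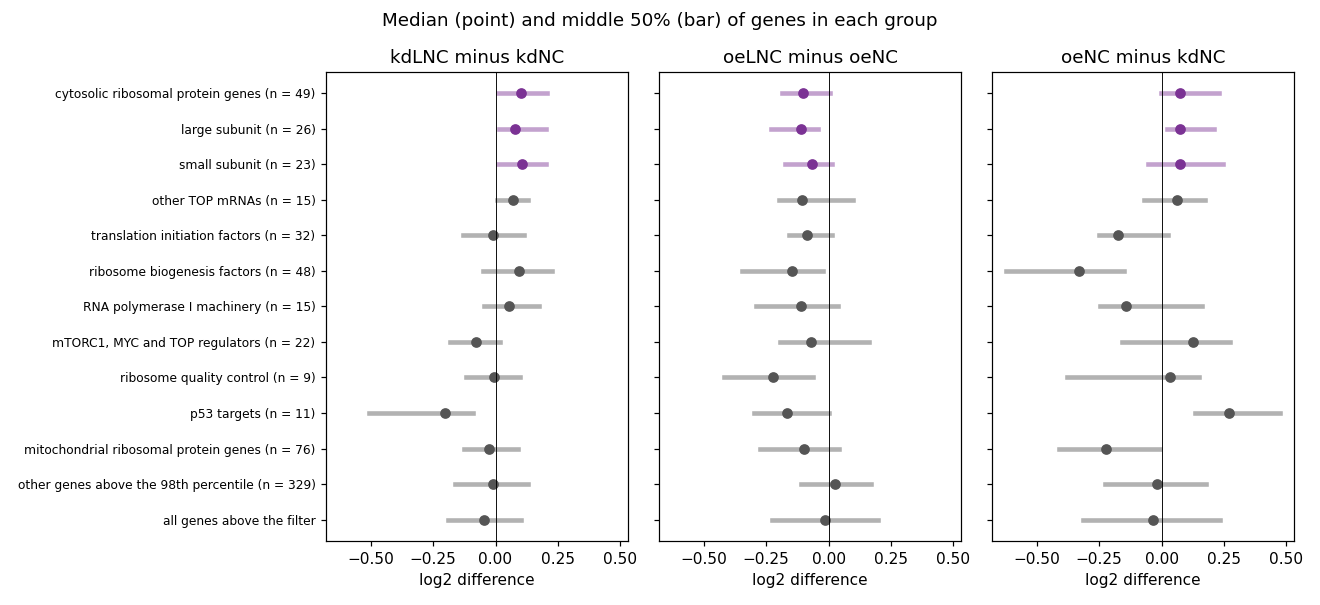
Median (points) and middle 50% of genes (bars) of the log2 difference (horizontal axis) for the ribosomal protein genes (purple) and other gene groups (grey), with the number of genes measured, in the 3 comparisons. The bars are spread between genes and not a replicate error. Rps27l counts both as a ribosomal protein gene and as a p53 target. The ribosomal protein genes have medians of 0.10, -0.10 and 0.07, and the ribosome biogenesis factors lie at -0.33 between the controls.

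Several other measures were read on the same arrays. Of the markers of myeloid cells, S100a8 and S100a9 lay at 13.32 to 13.49 on every array and Csf1r at 11.43 to 11.87. The 9 monocyte and macrophage markers measured had medians of -0.06 in the knockdown pair, 0.10 in the overexpression pair and 0.18 between the controls. In kdLNC 4 of them were higher and 5 lower. Mrc1 had levels of 3.14 (kdNC) and 4.13 (kdLNC), 4.94 (oeNC) and 4.23 (oeLNC). In that order F13a1 had 5.87, 6.55, 7.27 and 6.78, and Ccr2 had 4.78, 4.54, 4.19 and 4.97. Markers of other cell types were detected too. Of 6 erythroid markers measured, 4 were above the filter, with a summed intensity of 163 to 182, Hba-a1 at 2.44 to 2.58 and Alas2 at 5.93 to 6.38. The 6 B cell markers were all above the filter, with sums of 2510 (kdNC) and 2400 (kdLNC), 1523 (oeNC) and 1334 (oeLNC), and Cd79b lay at 9.87 to 10.43. Of 5 mast cell and basophil markers 4 were above it, with sums of 2030, 1657, 829 and 1005 in that order, and Mcpt8 lay at 9.39 to 10.52. In bulk samples fewer cells of a type and less RNA per cell cannot be told apart. Of 10 neutrophil markers measured 5 were at least 1.5-fold lower in kdLNC, beside 1.96% of all genes (list median -0.70), with summed intensities of 50430 (kdNC) and 42499 (kdLNC), 54696 (oeNC) and 50960 (oeLNC). All 5 eosinophil markers measured were lower in kdLNC than in kdNC, 3 of them by at least 1.5-fold, beside the same 1.96%. Their sums were 2328, 1245, 1196 and 1091. At least 1.5-fold lower in oeNC than in kdNC were 4 of them, 3 of these above the filter, beside 12.2% of all genes. Of 6 B cell markers 4, and of 5 mast cell and basophil markers 4, were at least 1.5-fold lower in oeNC than in kdNC, beside the same 12.2%. The 5 megakaryocyte markers measured had sums of 444 (kdNC) and 594 (kdLNC), 810 (oeNC) and 558 (oeLNC). In kdLNC 2 of them were higher and 3 lower. Pf4 had levels of 7.99, 8.77, 9.25 and 8.44 in the same order of arrays. Markers of myeloid progenitors, T and NK cells, dendritic cells and stroma were also read and are not described here. No marker probe set was at 0. As a sign of RNA length, the 3′ probe set of the beta-actin control exceeded its 5′ probe set by 1.61 (log2) in kdNC and by 1.96 to 1.97 on the other arrays, and for Gapdh the excess was 0.51, 0.69, 0.53 and 0.65 in the order used above. The bacterial poly-A control probe sets differed by -0.77 to -0.33 in the overexpression pair, 0.21 to 0.63 between the controls and -0.18 to 0.29 in the knockdown pair. The part of cell types, RNA quality and labelling in the differences of the ribosomal protein genes was not tested.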

How the data were processed

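The authors deposited linear intensities of 45101 probe sets, for which their processing notes give RMA with no version. No background estimate was used, and precision is limited by the number of arrays. Here log2 of the deposited intensities was taken without further normalization (Python 3.11.15, numpy 2.4.6, pandas 2.3.3, statsmodels 0.14.6, matplotlib 3.10.9). The platform annotation gave 34958 probe sets 1 symbol, 932 several and 9211 none, and only the first kind named genes. The targeted RNA has no entry of that name in the annotation, and its level was not analysed here.

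Groups came from the labels. Limma, named in the methods, cannot be fitted with 1 array per group. Genes named were the 5 brightest and dimmest, the 5 highest and lowest differences of each comparison, those past 1.5-fold, members of small role lists, and up to 4 per other list. Other genes given, such as Rpl22, Rps6, Rps9 and Rpl27, were chosen after their values were seen. The genes and lists were chosen with earlier results of these data known. Differences and counts were checked on simulated data with planted shifts and less noise than the spread between the control arrays. That checks the calculation and not how often calls arise in these data.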

Additional observations from a re-analysis of the deposited data

How the results depend on the processing

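The median of the ribosomal protein genes kept its sign in the pairs under every alternative run, at 0.05 to 0.17 in the knockdown pair (11 alternatives) and -0.24 to -0.03 in the overexpression pair (11), and ran from -0.09 to 0.19 between the controls (10). A move of under 0.05 was counted as none, by choice. Further quantile normalization gave medians of -0.029 in the overexpression pair and 0.0041 between the controls (0.0020 for the large subunit, 0.015 for the small), and small subunit medians of 0.051 and -0.012 in the pairs. Median centring gave -0.17 in the overexpression pair (-0.18 large, -0.14 small) and 4 genes past 1.5-fold there, beside 1191 of 11869 genes. Without members above the 99th percentile of probe sets, 15 genes had medians of 0.17, -0.24 and 0.0015 in the knockdown pair, overexpression pair and controls, the large subunit 0.21, -0.37 and 0.23, and the small subunit 0.017 in the overexpression pair and -0.20 between the controls. The second brightest probe set gave 0.19 between the controls (0.20 small), -0.16 for the small subunit in the overexpression pair, -0.0034 for the large in the knockdown pair, and 3 and 2 genes past 1.5-fold in the pairs (6.52% and 13.4% of all genes). With probe sets of the suffixes _x_at, _s_at and _a_at left out, the control median was -0.088 (-0.20 small), the large subunit had -0.16 in the overexpression pair, and 0, 1 and 2 genes passed 1.5-fold (4.06%, 9.35% and 22.7% of all genes), with Rpl22l1 not measured. The mean of both controls gave -0.054 for the large subunit in the overexpression pair. That alternative, loess, quantile normalization and no filter each gave 1 gene past 1.5-fold in that pair, beside 6.05%, 8.55%, 9.22% and 9.05% of all genes. At 1.2-fold 8, 7 and 12 genes passed in the knockdown pair, overexpression pair and controls (27%, 41.2% and 52.1% of all genes), and at 2-fold 0 and 1 in the first and last (0.834% and 7.03%).

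Chosen after seeing the data were every probe set as a unit, the probe sets of several symbols, and leaving out genes below the 70th percentile, none of which moved a median. Medians of other lists moved in 69 cases and stayed in 105, and values of single genes moved in 19 and stayed in 817. For single genes, a move smaller than 1 SD of oeNC minus kdNC in 500 genes of like level counted as none, a wide bound, and their sign changed in 112 cases, 100 of them within that bound. The cause of these moves was not tested. No paired analysis was possible because there is 1 array per group, and leaving out an array was not run for the same reason. Comparisons of protein sequence were not run.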
